A study of Mus musculus with 9 samples.

Results

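The Hox genes encode homeodomain transcription factors and were taken here as every gene of the count table whose symbol is Hox, a cluster letter from a to d, and a paralog number. The rule found 39 genes of 23337 in the table, and all 39 were matched to RefSeq by symbol. The RNA came from Cebpb-ko MEFs, an immortalised line of mouse embryonic fibroblasts (C57BL/6 x 129) without C/EBPβ, after stable transfection with rat C/EBPβ-LAP, with rat C/EBPβ-LIP or with the empty vector (EV). LAP is the long, transactivating isoform, LIP is the truncated isoform that keeps the DNA-binding end, and the 3 libraries of each group were compared in pairs of groups. All 3 groups lack endogenous C/EBPβ and were kept under Zeocin selection, the plasmids were pcDNA3 or pSV2Zeo, and whether a line was 1 clone or a pool is not given in the sources used here. Nothing states that the libraries of a group came from separate cultures, so p-values measure the spread between these libraries, which may be technical. Isoform and transfected line go together here, so an effect of the isoform and a difference between lines cannot be told apart.

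Hox genes lie in 4 clusters, and along each cluster the paralog number follows the order in which genes are switched on in the embryo and the body level at which they act. Low-numbered genes act towards the head and high-numbered genes towards the tail and the distal limb. Cultured fibroblasts are known to keep a Hox pattern that reflects the place in the body they were taken from. Polycomb complexes keep silent Hox genes in a repressed chromatin state, trithorax complexes keep active ones open, and Pbx, Meis and Pknox proteins (TALE homeodomain cofactors) bind DNA together with Hox proteins. Clusters also hold microRNAs of the miR-10 and miR-196 families, some of which target Hox transcripts.

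The promoters of the Hox genes with the largest differences between groups are shown first, where RefSeq (GRCm38.p6) gave one, because the groups differ by a C/EBP transcription factor. Each runs from 250 bases before to 50 after the annotated start, 5′ to 3′ on the strand of the gene. Capitals mark CCAAT, the letters the protein family is named after, and TTGCNNAA, a looser form of its palindromic site, on either strand.
Hoxa9, chr6:52227321-52227620 (-): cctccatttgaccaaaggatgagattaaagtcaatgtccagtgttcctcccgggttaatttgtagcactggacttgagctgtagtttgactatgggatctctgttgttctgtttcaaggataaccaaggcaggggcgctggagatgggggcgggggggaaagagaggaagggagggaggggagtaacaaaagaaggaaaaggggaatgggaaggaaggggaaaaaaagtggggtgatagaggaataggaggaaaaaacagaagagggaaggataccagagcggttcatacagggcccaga
Hoxa10, chr6:52234890-52235189 (-): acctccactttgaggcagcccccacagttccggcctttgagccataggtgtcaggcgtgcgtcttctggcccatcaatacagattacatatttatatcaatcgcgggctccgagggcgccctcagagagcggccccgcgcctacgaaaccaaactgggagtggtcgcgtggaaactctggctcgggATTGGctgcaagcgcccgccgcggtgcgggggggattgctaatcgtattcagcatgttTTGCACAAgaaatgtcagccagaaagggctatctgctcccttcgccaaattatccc
Hoxb8, chr11:96281655-96281954 (+): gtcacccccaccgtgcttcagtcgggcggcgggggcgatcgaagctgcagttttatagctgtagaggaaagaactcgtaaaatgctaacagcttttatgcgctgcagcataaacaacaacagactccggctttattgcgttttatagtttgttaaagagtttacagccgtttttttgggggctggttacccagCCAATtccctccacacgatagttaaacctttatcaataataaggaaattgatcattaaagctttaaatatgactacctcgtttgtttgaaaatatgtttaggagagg
Hoxd8, chr2:74704365-74704664 (+): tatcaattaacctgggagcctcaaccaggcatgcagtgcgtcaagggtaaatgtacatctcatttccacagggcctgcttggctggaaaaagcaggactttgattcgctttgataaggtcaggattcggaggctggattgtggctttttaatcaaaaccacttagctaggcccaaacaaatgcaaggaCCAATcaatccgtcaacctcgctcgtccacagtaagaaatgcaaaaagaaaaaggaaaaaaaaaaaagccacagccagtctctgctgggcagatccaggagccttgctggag
Hoxd9, chr2:74697513-74697812 (+): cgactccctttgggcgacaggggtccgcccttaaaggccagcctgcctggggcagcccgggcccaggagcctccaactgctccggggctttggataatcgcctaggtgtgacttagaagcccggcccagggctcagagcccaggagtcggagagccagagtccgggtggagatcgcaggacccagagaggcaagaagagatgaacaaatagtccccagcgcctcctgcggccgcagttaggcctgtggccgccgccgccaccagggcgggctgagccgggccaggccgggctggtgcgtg
Hoxa10 has 2 annotated starts, and the one shown, within the transcribed span of the other, held a CCAAT on the opposite strand and a TTGCNNAA. It is shown because it holds the motifs, and the window of the other start (chr6:52240805-52241104) held neither. Hoxb8 and Hoxd8 each held a CCAAT, and the windows of Hoxa9 and Hoxd9 held neither motif. Entries were given for 22 of the 39 genes, 24 promoters in all. The full palindrome TTGCGCAA was in 0 of these 24 and in 0.183% of 32851 mouse promoters of the same length. TTGCNNAA, which includes the full palindrome, was in 5 of 24 (20.8%) against 10.8% of all promoters, and CCAAT was in 15 of 24 (62.5%) against 37.4%. The 5 promoters with TTGCNNAA belonged to Hoxa10, Hoxc4, Hoxd11 and Hoxd12. CCAAT was marked for the family's name only, and its share is not read here as a share of C/EBP sites. A match describes the letters of this window and no binding was measured.

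The microRNAs of the clusters were grouped by their seed, bases 2 to 8, which is in capitals and pairs with target RNA. These mature sequences are shown because one of them has an almost fully paired site in a Hox transcript described below.
miR-10a-5p: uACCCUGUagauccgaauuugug
miR-10b-5p: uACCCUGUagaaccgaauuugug
miR-196a-5p: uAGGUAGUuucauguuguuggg
miR-196b-5p: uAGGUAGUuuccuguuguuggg
Hoxb8 site for miR-196a-5p: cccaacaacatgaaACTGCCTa
The miR-10 pair shares 1 seed and the miR-196 pair another. In a search of RefSeq-supported transcripts of all 39 genes, the window with the most pairs to miR-196a-5p was in Hoxb8, with 21 Watson-Crick pairs and 1 G:U pair over 22 bases, and the next best window of any gene had 15 Watson-Crick pairs. The Hoxb8 site lies at chr11:96284888-96284909 (GRCm38, plus strand) in exon 2 of 2, in the 3′ UTR, and its capitals face the seed. Mature microRNAs were not measured by these libraries.

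The libraries held 24839139 to 33522082 counts on genes. Expression is given as CPM, counts scaled to library size, after TMM normalization over the 9 libraries, and levels of different genes are compared as CPM per kb of exon. A gene was called detected above 3 counts in at least 1 library, which is 0.0895 to 0.121 CPM, and expressed at a mean of at least 20 counts over the 9 libraries. Cebpb itself had 684 to 1077 counts in every library, EV included. The part of Cebpb that the deletion removes is not given in the sources used here, so the group labels are not checked by them. Fibroblast markers were abundant, with Fn1, Col1a1 and Col1a2 the highest in counts, and the 13 markers summed to 17055 to 43251 CPM. Epithelial markers summed to 485 to 1004 CPM, and those of endothelium, blood, muscle, pluripotent cells and glia each stayed at or below 8.26 CPM.

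Of the 39 Hox genes, 30 were detected and 27 expressed. Detected but not expressed were Hoxa10, Hoxa13 and Hoxc12. Hoxa11, Hoxc11, Hoxd1, Hoxd10 and Hoxd13 had no more than 2 counts in any library, and Hoxb1, Hoxb13, Hoxd11 and Hoxd12 had none in any of the 9, so no level could be told from zero at this depth. The HoxA cluster (chr6:52155367-52260880) held 8 expressed genes of 11, HoxB (chr11:96194316-96368254) 8 of 10, HoxC (chr15:102921131-103036856) 7 of 9 and HoxD (chr2:74668225-74765142) 4 of 9. All members of paralog groups 2 to 9 were expressed. Of groups 10 to 12 only Hoxc10 was expressed, with a mean of 21.9 counts. Hoxc13, known for its role in hair and nail keratin expression, stood apart from its neighbours with a mean of 713 counts, while Hoxc11 and Hoxc12 did not exceed 1 and 6 counts.

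**Figure D1:**
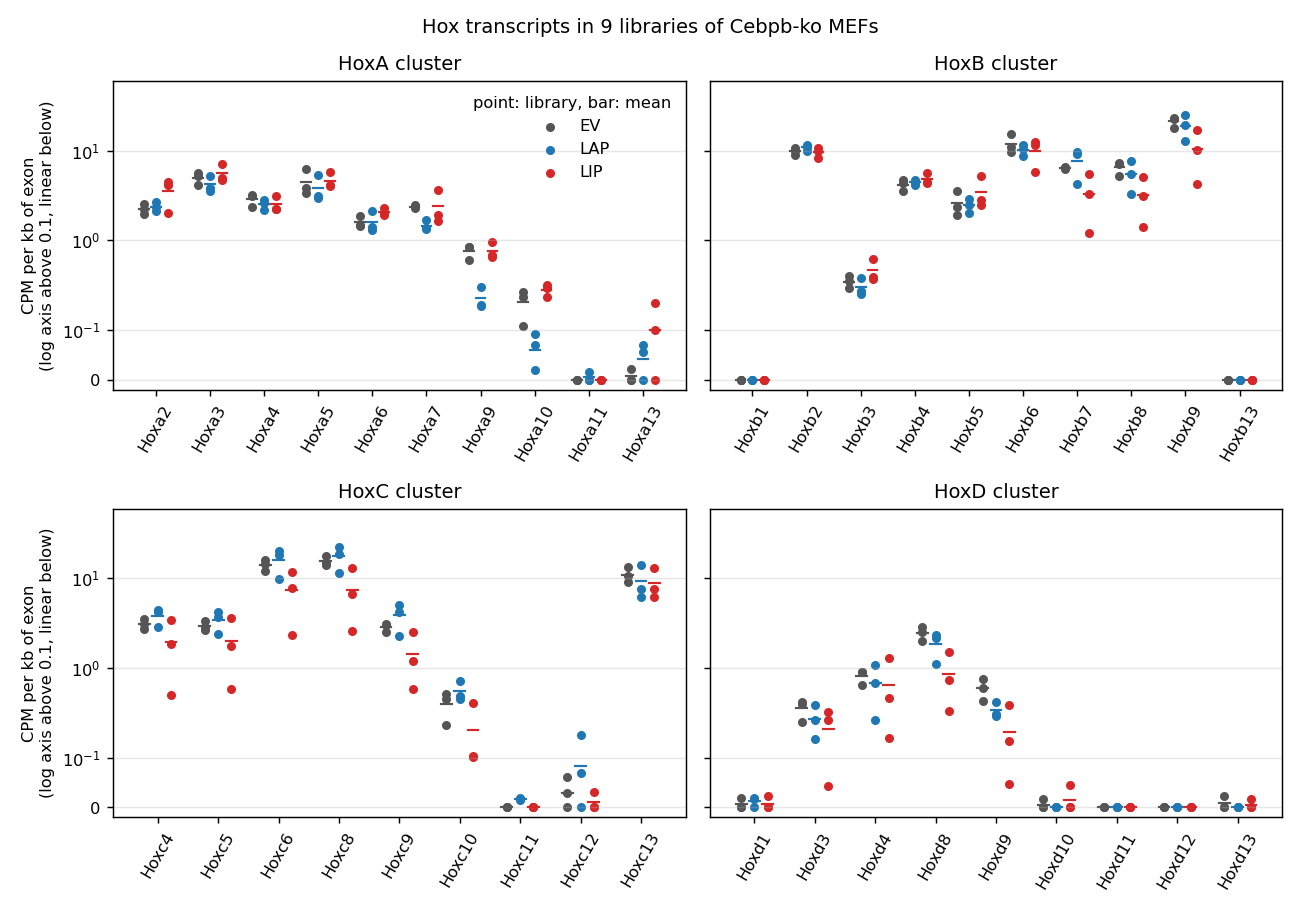
Level of Hox genes by cluster and paralog number, in CPM per kb of exon on a log axis that is linear below 0.1, with 1 point per library and a short bar at the mean of each group (n = 3). Levels drop after paralog group 9 in HoxA, HoxB and HoxD, whereas Hoxc13 had 9.73 CPM per kb over the 9 libraries.

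The highest levels per length were those of Hoxb9, with 16.9 CPM per kb over the 9 libraries, Hoxc8 (13.5), Hoxc6 (12.6), Hoxb6 (10.8) and Hoxb2 (10.1). Hoxb9 (chr11:96271330-96276595) and Hoxc8 (chr15:102990539-102994275), both on the plus strand, pattern the thoracic skeleton and its nerves. Hoxc13 followed at 9.73, and Hoxb7, Hoxb8 and Hoxa3 at 5.81, 5.07 and 4.93. In EV cells Hoxb9 had 21.3 ± 3.07 CPM per kb (SD, n = 3) and Hoxc8 had 15.6 ± 2.06, so the intervals of 1 SD around these neighbours in the order did not overlap. Those of Hoxc8 and Hoxc6 (14.2 ± 1.83) did. By paralog group, the summed EV mean was largest for group 9, at 65.4 CPM, and for group 8, at 53.1 CPM, and was 1.41 CPM for group 10.

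The level of these abundant genes was given library by library. Hoxb2, a hindbrain gene, had 17.3, 14.7 and 16.02 CPM in EV, 16.3, 19.0 and 17.8 CPM in LAP and 17.3, 13.4 and 16.02 CPM in LIP. Hoxb6 had 14.6, 12.7 and 20.1 CPM in EV, 13.8, 15.3 and 11.7 CPM in LAP and 15.5, 16.7 and 7.59 CPM in LIP. For both genes the 3 groups overlapped, and the low LIP value of Hoxb6 came from LIP library 3. Hoxc6 had 25.1, 19.3 and 23.0 CPM in EV, 29.0, 32.3 and 15.5 CPM in LAP and 18.6, 12.4 and 3.68 CPM in LIP. Its LIP libraries all lay below the EV libraries, and LAP library 3 lay below LIP library 1.

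LIP was first compared with EV, the contrast between cells given the short isoform and cells without C/EBPβ. No Hox gene passed an adjusted p of 0.05 in the fit without a block for the replicate number. The fit with the block was an alternative here, because same-numbered LIP and EV libraries did not all deviate together. It called 5 of 33 Hox genes (Hoxb8, Hoxb9, Hoxc8, Hoxd8 and Hoxd9) and 467 of all 18203 genes tested. Genes at the 5′ end of HoxB, most of HoxC and Hoxd8 and Hoxd9 had lower values in LIP cells, with log2 differences of -1.67 to -0.58, whereas the log2 differences of the expressed HoxA genes ran from -0.21 to 0.65. Of 33 Hox genes tested with edgeR's quasi-likelihood test without the block, 0 passed, when 0.396% of all 18203 genes tested were called. An unadjusted p under 0.05 was reached by 9, of which 8 were lower in LIP and 1, Hoxa13 at no more than 8 counts, was higher. DESeq2's Wald test called 1, Hoxd8, when it called 321 of all genes. The exact test of edgeR called 0 Hox genes, when it called 301 of all genes. By the same unadjusted limit, 1228 of all genes were lower and 770 higher.

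Hoxd8, a trunk-level gene of HoxD, came closest. It had 7.93, 5.54 and 6.94 CPM in EV, 6.41, 5.89 and 3.03 CPM in LAP and 4.12, 2.03 and 0.904 CPM in LIP. Every LIP library was below every EV library, and the log2 difference was -1.54 ± 0.42 (SE, adjusted p = 0.154, edgeR). Its neighbour Hoxd9, which acts in the lumbar spine and proximal limb, had 1.62, 0.923 and 1.29 CPM in EV, 0.894, 0.647 and 0.629 CPM in LAP and 0.816, 0.0983 and 0.323 CPM in LIP. Again no LIP library reached an EV library, with a log2 difference of -1.67 ± 0.55 (adjusted p = 0.263). The LIP value of Hoxd9 rests on 20, 3 and 10 counts. Hoxd3 and Hoxd4, at the other end of the cluster, differed by -0.78 ± 0.54 and -0.36 ± 0.53. Both values rested on single LIP libraries: Hoxd3 was -1.28 without LIP library 2 and -0.27 without LIP library 3, and Hoxd4 was -1.42 and 0.12.

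In HoxB the genes split by position. Hoxb9 had 59.97, 45.7 and 58.7 CPM in EV, 64.3, 49.98 and 33.1 CPM in LAP and 43.6, 26.3 and 10.9 CPM in LIP. The LIP and EV libraries did not overlap, with a log2 difference of -1.03 ± 0.36 (adjusted p = 0.292). Hoxb8, whose forced expression is used to keep myeloid progenitors growing, had 18.9, 13.8 and 19.0 CPM in EV, 20.1, 14.5 and 8.69 CPM in LAP and 13.3, 8.32 and 3.71 CPM in LIP. It gave -1.03 ± 0.35 (adjusted p = 0.292), and Hoxb7 gave -0.96 ± 0.40. Hoxb2 to Hoxb6 gave -0.26 to 0.43, with none near the threshold.

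The expressed HoxC genes all had lower means in LIP cells, with none called without the block. Hoxc8 had 33.5, 26.3 and 27.5 CPM in EV, 42.2, 35.2 and 21.4 CPM in LAP and 24.2, 12.5 and 4.88 CPM in LIP. Its LIP libraries lay below EV without overlap, at -1.07 ± 0.40 (adjusted p = 0.335). Hoxc10 had 0.871, 0.443 and 0.967 CPM in EV, 1.36, 0.934 and 0.851 CPM in LAP and 0.776, 0.197 and 0.194 CPM in LIP, and LIP library 1 lay within the EV range. All 7 expressed HoxC genes had negative log2 differences, from -1.07 for Hoxc8 to -0.30 ± 0.26 for Hoxc13. Without LIP library 3, those of Hoxc4 and Hoxc5 were -0.24 and -0.13. In HoxA, 7 of 8 expressed genes had positive ones, with a median of 0.11 and the largest for Hoxa2 (0.65 ± 0.30, adjusted p = 0.457), a gene of the branchial arches. Over the 27 expressed Hox genes 17 were lower and 10 higher, with a median of -0.30, beside a median of 0.01 over all 11535 expressed genes, of which 5522 were lower and 6013 higher.

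The groups did not overlap for 8 of the 27 expressed Hox genes, namely Hoxa6, Hoxb7, Hoxb8, Hoxb9, Hoxc6, Hoxc8, Hoxd8 and Hoxd9, with Hoxa6 higher and the rest lower in LIP. Groups did not overlap for 15.6% of all genes tested and for 2181 of the 11535 expressed genes. LIP library 3 was the lowest of the 9 libraries for 13 of the 27 genes. Without it the log2 differences were -1.15 for Hoxd8 (adjusted p = 0.0645), -0.66 for Hoxb8, -0.64 for Hoxb9 and -0.66 for Hoxc8. That fit called no Hox gene, when 367 of all 17826 genes tested were called. Without LIP library 1, Hoxd8 (-2.20, adjusted p = 0.0266) and Hoxc9 (-1.68, adjusted p = 0.0487) passed, when 282 of all 18094 genes tested were called. In bulk RNA, fewer cells that express a gene and less RNA per cell cannot be told apart. Fibroblast markers also had lower values in LIP cells: 11 of the 12 expressed ones were lower than in EV, with a median log2 difference of -0.87. Calls were counted over all 13 markers, of which Lum was below the limit for expressed. Of these 13 the quasi-likelihood test called 0 without the block and 5 with it (Col1a2, Pdgfra, Thy1, Lum and Prrx1). At an unadjusted p under 0.05, 8 were lower, and DESeq2 and the exact test each called 4. Their summed level was 39804, 35327 and 36781 CPM in EV and 30315, 17055 and 29367 CPM in LIP, so it was lowest in LIP library 2 and not in library 3, and Lum was at 0 in the 3 LIP libraries. Their part in the Hox values was not tested.

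**Figure D2:**
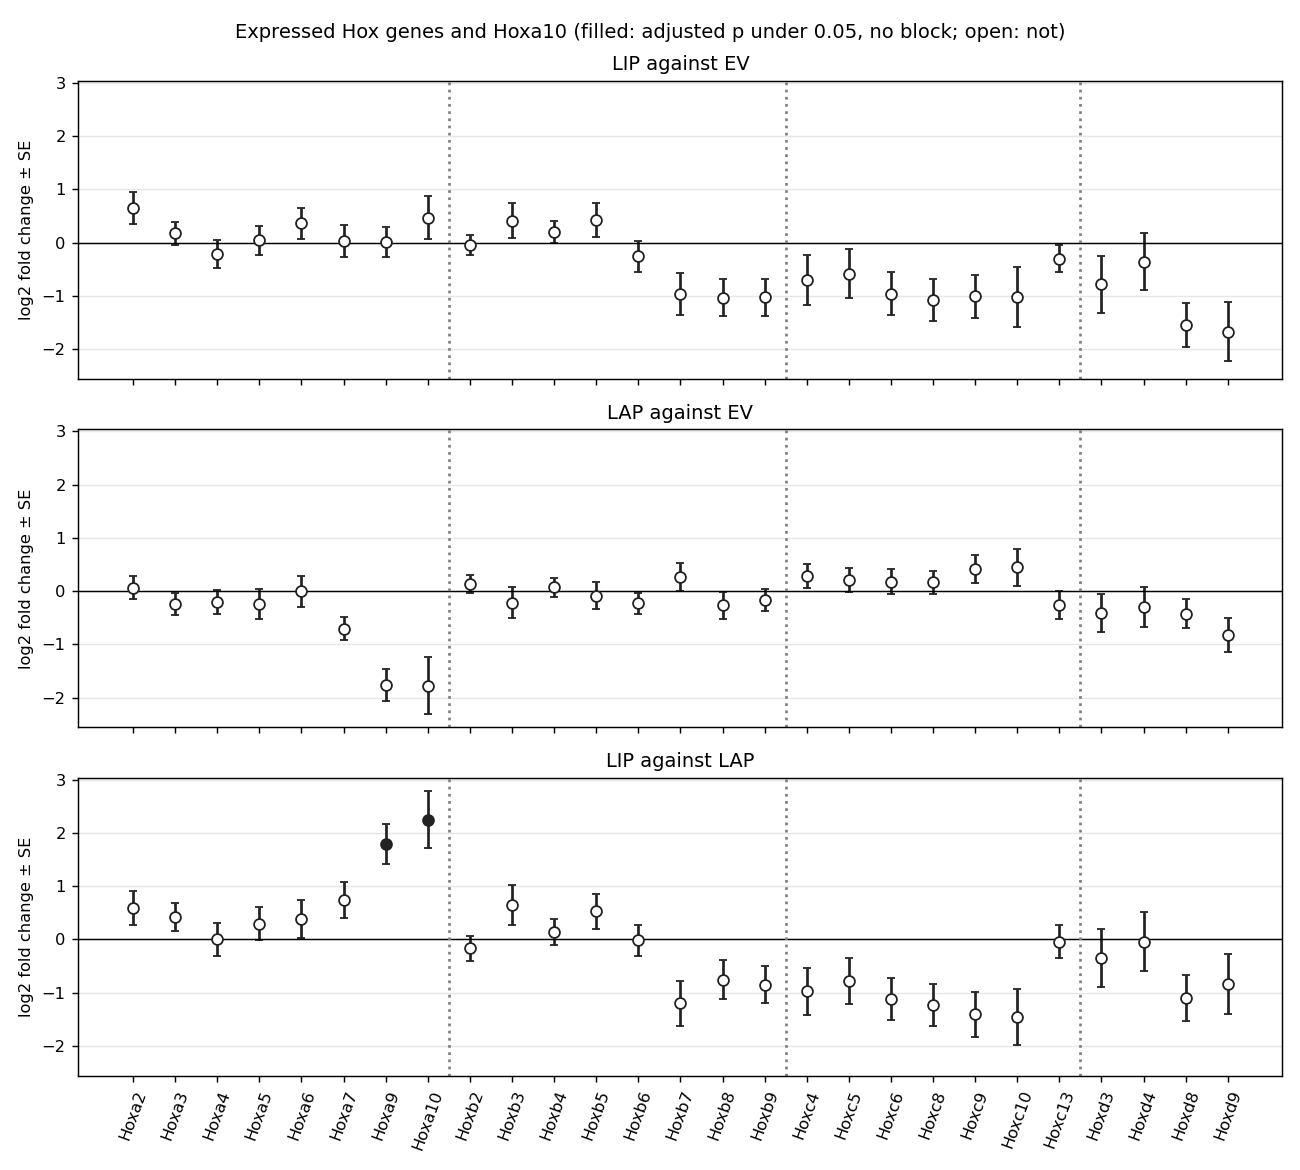
Log2 fold change (vertical axis, with SE) of expressed Hox genes and Hoxa10, in order along each cluster, for LIP against EV, LAP against EV and LIP against LAP. Filled points had an adjusted p under 0.05 without a block for the replicate number, and only Hoxa9 and Hoxa10 in LIP against LAP were filled. Hoxa9 differed by -1.77 from EV in LAP and by 0.02 in LIP, whereas Hoxb9 differed by -0.17 in LAP and by -1.03 in LIP.

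LAP was then compared with EV to ask how cells given the long isoform differ from those with the empty vector. The largest log2 differences among expressed genes and Hoxa10 were at the 5′ end of HoxA, where the mean level of Hoxa9 (± SD, n = 3) was 2.46 ± 0.454 CPM with the empty vector and 0.726 ± 0.212 CPM with LAP, while the log2 differences of expressed HoxB and HoxC genes ran from -0.27 to 0.44. Hoxa9, which sustains blood stem cells and drives leukaemia when overexpressed, had 2.71, 2.73 and 1.93 CPM in EV, 0.617, 0.970 and 0.592 CPM in LAP and 2.12, 3.08 and 2.23 CPM in LIP. Each LAP library was below every EV and every LIP library. The log2 difference to EV was -1.77 ± 0.30 (adjusted p = 0.0542, edgeR), just above the threshold. With the replicate number as a block, which the deviations of same-numbered libraries warranted here, it was -1.78 ± 0.26 (adjusted p = 0.00149). In that fit Hoxa9 was lower in LAP cells than in EV cells.

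Hoxa10, a gene of the uterus and the proximal hindlimb, had 0.840, 0.738 and 0.351 CPM in EV, 0.0617, 0.287 and 0.222 CPM in LAP and 0.735, 0.917 and 1.001 CPM in LIP. The LAP libraries were again lowest, on 2, 8 and 6 counts, and the log2 difference to EV was -1.77 ± 0.53 (adjusted p = 0.918; 0.293 with the block). Hoxa7 had 5.04, 4.69 and 4.57 CPM in EV and 2.68, 2.77 and 3.37 CPM in LAP, a difference of -0.71 ± 0.22 that did not pass (adjusted p = 0.918; 0.217 with the block). Hoxa2 to Hoxa6 gave -0.25 to 0.07.

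Of 35 Hox genes tested, 0 passed without the block, when 0.0606% of all 18156 genes did, and 1 passed with it, when 0.297% did. At an unadjusted p under 0.05, 4 were lower and 0 higher, beside 243 lower and 350 higher of all genes tested. DESeq2 and edgeR's exact test each called 1, Hoxa9, when they called 26 and 33 of all genes. Among the 27 expressed genes 16 were lower and 11 higher, with a median of -0.17 beside 0.00 over all expressed genes. The groups did not overlap for 3 of the 27, Hoxa7, Hoxa9 and Hoxd9, and did not for 7.57% of all genes tested. Left out one library at a time, the fit without the block gave Hoxa9 an adjusted p of 0.0257 to 0.225 and log2 differences of -2.01 to -1.65. It was below 0.05 without EV library 1, EV library 3 or LAP library 3, when 24, 16 and 62 of all genes were called. Without EV library 2, LAP library 1 or LAP library 2, the fit called 6, 10 and 7 of all genes. Left out one pair of same-numbered libraries at a time, the blocked fit called Hoxa9 each time, and called 6 further Hox genes without pair 2 and Hoxa10 without pair 3. Of all genes, it called 35 without pair 1, 273 without pair 2 and 179 without pair 3. With another gene filter, edgeR's filterByExpr, the blocked fit called 0 of 28 Hox genes, and 7 of all 12514 genes. With 3 libraries against 3, an exact permutation test cannot go below p = 0.1, two-sided, the value it gave for Hoxa9. No fibroblast marker passed in this comparison, with a median log2 difference of -0.05 and 0 called or lower at an unadjusted p under 0.05.

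**Figure D3:**
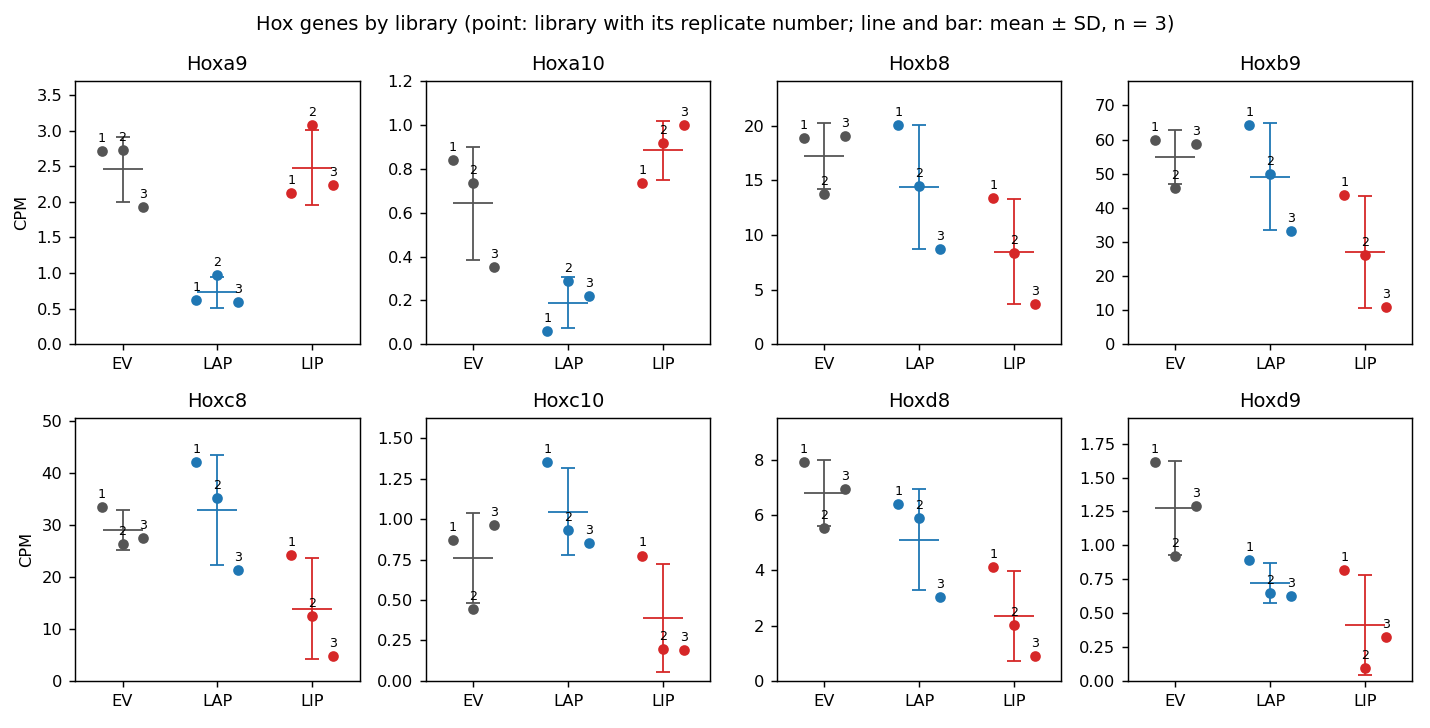
CPM of 8 Hox genes in each library (vertical axis from 0), with points labelled by replicate number and the mean ± SD of each group (n = 3). The 3 LAP libraries lie lowest for Hoxa9 and Hoxa10, and LIP library 3 lies lowest for Hoxb8, Hoxb9, Hoxc8 and Hoxd8.

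LIP was finally compared with LAP, which asks how the cells given each isoform differ from each other. Hoxa9 and Hoxa10 had higher values in LIP than in LAP and were the only Hox genes called without the block. Against EV, their log2 differences were 0.02 and 0.47 in LIP and -1.77 for both genes in LAP. Hoxa9 was higher by 1.79 ± 0.37 (SE, adjusted p = 0.026, edgeR) and Hoxa10 by 2.25 ± 0.53 (adjusted p = 0.0483) on the log2 scale, and the values of each library were given above. No LAP library of either gene reached a LIP library. These were 2 of 35 Hox genes tested, when 1.05% of all 18166 genes were called. DESeq2 and the exact test called the same 2, when they called 255 and 244 of all genes. Scaling by total counts called Hoxa9 only, when 113 of all genes were called. No Hox gene was called with filterByExpr (2 of all genes), a minimum of 10 counts in every library (0) or a threshold of 0.01 (36). At an unadjusted p under 0.05, 8 Hox genes were lower and 3 higher, beside 1087 lower and 599 higher of all genes tested.

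With the block, 12 Hox genes passed, 2 of them higher and 10 lower in LIP, when 6.51% of all genes passed. Hoxa9 (1.79 ± 0.32, adjusted p = 1.54e-05) and Hoxa10 (2.28 ± 0.50, adjusted p = 0.000649) were the 2 higher in LIP. The 10 lower in LIP than in LAP were Hoxb7, Hoxb8, Hoxb9, Hoxc4, Hoxc5, Hoxc6, Hoxc8, Hoxc9, Hoxc10 and Hoxd8. They ranged from Hoxb8, at -0.84 ± 0.21 (adjusted p = 0.00434), to Hoxc10, at -1.56 ± 0.43 (adjusted p = 0.0107). Hoxc8 was lower by 1.44 on the log2 scale and Hoxb9 by 1.002. The same genes without the block had log2 differences of -1.45 to -0.75 and adjusted p-values of 0.147 to 0.646. Hoxc13 did not follow its cluster, at -0.02 ± 0.19 with the block.

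The calls rested in part on single libraries. Without the block, leaving out LAP library 1, LAP library 2, LIP library 1 or LIP library 2 left 0 Hox genes called. Of all genes, these fits called 147, 7, 147 and 94, in the same order. They gave adjusted p-values of 0.0501 to 0.111 for Hoxa9 and 0.0852 to 0.232 for Hoxa10. The log2 differences were 1.60 to 2.03 and 1.81 to 2.65. Leaving out LIP library 3 kept both, when 448 of all 17800 genes were called. Leaving out LAP library 3 kept both and added Hoxb7, Hoxc6, Hoxc8 and Hoxc9, all lower in LIP. That fit called 408 of all 17869 genes, where the fit with all 6 libraries called 190. With the block, leaving out pair 1, 2 or 3 left 10, 4 and 7 Hox genes called, and Hoxa9, Hoxc8 and Hoxc9 were among them each time. Of all genes, these blocked fits called 640 of 17800, 390 of 17663 and 914 of 17438.

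Among the 27 expressed genes 16 were lower and 11 higher in LIP than in LAP, and all 8 of HoxA were higher while all 7 of HoxC and all 4 of HoxD were lower. Without LIP library 3 the log2 differences of Hoxd3 and Hoxd4 turned from -0.36 and -0.05 to 0.14 and 0.42. Well-counted genes with small log2 differences, Hoxa4 (0.003) and Hoxc13 (-0.04) among them, also changed sign when 1 library was left out. The median was -0.05, beside 0.00 over all expressed genes. The groups did not overlap for 3 of the 27, Hoxa9, Hoxb3 and Hoxc10, and did not for 12.8% of all genes tested. Hoxc9 had 7.12, 6.02 and 7.35 CPM in EV, 12.0, 10.1 and 5.44 CPM in LAP and 6.04, 2.85 and 1.39 CPM in LIP, so that LAP library 3 lay just below LIP library 1. For Hoxb9, Hoxc6, Hoxc8 and Hoxd8 LAP library 3 was likewise below LIP library 1. Fibroblast markers had lower values here too, with 11 of the 12 expressed ones lower and a median of -0.89. Of all 13 markers 1 was called, Prrx1 (9 with the block, Lum among them). The part of these markers in the Hox values was not tested. Each group is in 2 of the 3 comparisons, so they share libraries and are not independent.

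Ratios between sums of neighbouring genes within a library do not depend on the scaling between libraries. They were formed after the values above had been seen and were given no test. The summed CPM of Hoxb7 to Hoxb9 over that of Hoxb2 to Hoxb6 was 1.78, 1.64 and 1.53 in EV, 2.04, 1.45 and 1.05 in LAP and 1.28, 0.686 and 0.385 in LIP. Every LIP library was below every EV library. In HoxA, the sum of Hoxa7 to Hoxa10 over that of Hoxa2 to Hoxa6 was 0.277, 0.320 and 0.182 in EV, 0.134, 0.17 and 0.121 in LAP and 0.204, 0.203 and 0.286 in LIP, lowest in the 3 LAP libraries. The sum of Hoxc4 to Hoxc10 over Hoxc13 was 3.71, 2.47 and 2.27 in EV, 5.69, 6.33 and 1.63 in LAP and 3.59, 2.39 and 0.405 in LIP, so LAP library 3 and LIP library 3 were the lowest of their groups and EV and LIP overlapped. For Hoxd8 and Hoxd9 over Hoxd3 and Hoxd4 the groups overlapped.

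**Figure D4:**
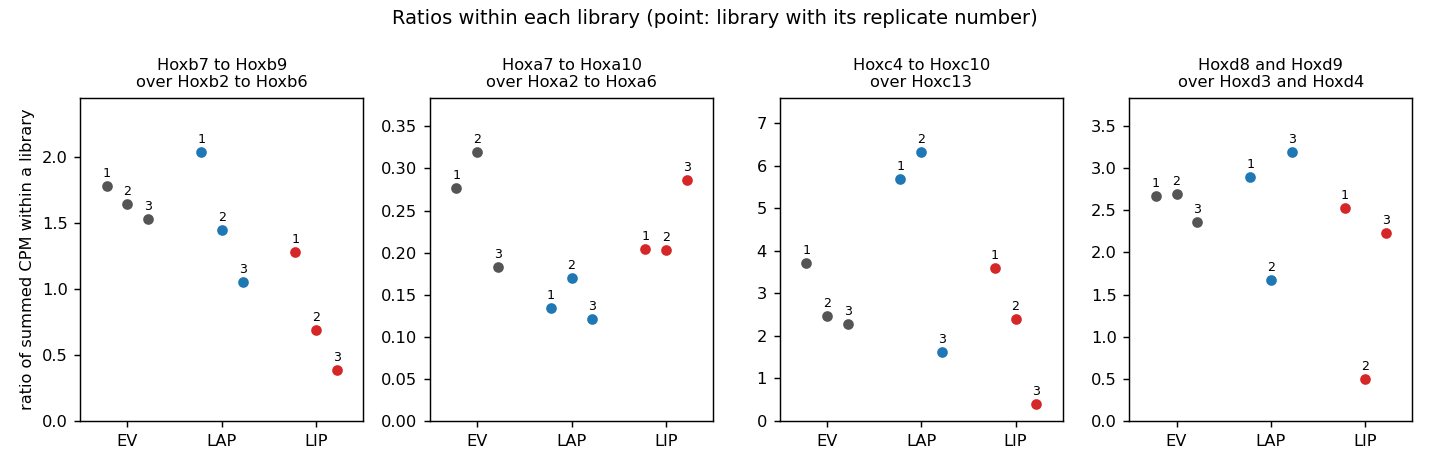
Ratio of summed CPM between stretches of a cluster within each library (vertical axis from 0, 1 point per library with its replicate number). The ratio of Hoxb7 to Hoxb9 over Hoxb2 to Hoxb6 was 0.385 to 1.28 in LIP and 1.53 to 1.78 in EV, and that of Hoxa7 to Hoxa10 over Hoxa2 to Hoxa6 was lowest in LAP.

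All Hox counts together came to 299.95, 251 and 312 CPM in EV, 313, 289 and 235 CPM in LAP and 250.1, 211 and 159 CPM in LIP. The libraries did not move alike: EV library 2 was the lowest of its group for 23 of 27 expressed genes, LAP library 3 for 17 and LIP library 3 for 13. LIP library 2 was the highest of all 9 libraries for 7 genes, among them Hoxa3, Hoxb4 and Hoxb5, and LAP library 1 for 7, among them Hoxb8, Hoxb9 and Hoxc8.

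Most non-coding genes of the clusters did not reach the limit for expressed. This says little of the microRNA loci, whose mature products these libraries do not capture. Of the 12 that were counted, 2 were expressed, Mira (chr6:52214491-52215288) and Gm53 (chr11:96251660-96264484), which lies upstream of Hoxb9. Mira, a transcript known to act on Hoxa genes in embryonic stem cells, had 153, 128 and 177 counts in EV, 107, 62 and 102 in LAP and 75, 104 and 226 in LIP. Its log2 difference between LAP and EV was -0.66 ± 0.24 (adjusted p = 0.918; 0.293 with the block), beside -0.71 for Hoxa7. Gm53 had 193, 142 and 191 counts in EV, 250, 251 and 106 in LAP and 132, 155 and 34 in LIP. It was lowest in LIP library 3, as Hoxb9 was, and between LIP and LAP it gave -0.81 (adjusted p = 0.622), and -0.98 with the block (adjusted p = 0.00514).

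The locus of Mir196a-1, between Gm53 and Hoxb9, had 19, 10 and 25 counts in EV, 22, 29 and 2 in LAP and 10, 13 and 1 in LIP. The loci of Mir10a, Mir196a-2, Mir196b and Mir615 had none, and that of Mir10b had 1. RNA-seq libraries of this kind do not capture mature microRNAs, so the Mir196a-1 value says nothing of mature miR-196a or of the Hoxb8 site printed above. The low libraries of the Mir196a-1 locus, LAP 3 and LIP 3, were also the low libraries of Hoxb8 and Hoxb9 within their groups.

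No gene known to work with or on the Hox clusters passed the test in any comparison, with or without the block. Of the TALE cofactors 5 of 9 were expressed, with a median log2 difference of -0.04 in LIP against EV, and Meis1 had 5 to 21 counts and Meis2 none. Of 27 Polycomb genes 25 were expressed, with log2 differences of -0.78 to 0.57 in LIP against EV and a median of 0.02. Of the 10 trithorax and demethylase genes counted, 9 were expressed, and all 9 had positive differences in LIP, with a median of 0.31 against EV and 0.29 against LAP and the largest for Dot1l (0.53) and Kmt2a (0.50), which methylate histone H3. Of 7 upstream regulators 4 were expressed, Rara, Rarb, Rarg and Ctcf, while Cdx1, Cdx2 and Cdx4 had at most 1 count. In these 4 lists 0 genes were called by the quasi-likelihood test, by DESeq2 or by the exact test in any comparison, and at an unadjusted p under 0.05 no list had more than 1 gene in a direction.

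Genes just outside the clusters were read beside them. Of the 5 nearest protein-coding genes of the table on each side of each cluster, 31 of 40 were expressed, and their median log2 difference was 0.07 in LIP against EV, 0.03 in LAP against EV and -0.04 in LIP against LAP. None was called without the block, and in LIP against EV an unadjusted p under 0.05 was reached by 2 that were higher and 0 that were lower, with 1 called by DESeq2, Hnrnpa1, and 0 by the exact test. In LIP against LAP the block called 2, Npff and Hnrnpa1, both higher, where without it 4 were higher at an unadjusted p under 0.05. In LIP against EV the log2 differences of the flanking genes ran from -0.42 to 1.38, beside -1.67 to 0.65 for the expressed Hox genes.

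Reads that fit more than one gene were checked on 50-base windows, the read length, of RefSeq-supported transcripts against all GENCODE transcripts on both strands. Hoxa9, Hoxa10, Hoxb6, Hoxb7, Hoxb8, Hoxc4, Hoxc6, Hoxc13, Hoxd8 and Hoxd9 shared no window with another gene, and Hoxb9 and Hoxc8 shared 0.238% and 0.66%. Hoxd3 shared 86.3% of its windows, Hoxb3 62.2%, Hoxb2 57.3%, Hoxd4 42.2%, Hoxa7 27.04% and Hoxa3 26.3%, with antisense or overlapping transcripts of the same cluster, and Hoxc10 shared 6.40% with a transcript named Hoxc5. The library kit does not mark strand, so for these genes reads of either strand cannot be told apart and their levels are uncertain. Between clusters, at most 3 windows of any Hox gene were shared with a paralog.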

How the data were processed

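RNA-seq libraries (TruSeq RNA v2, 50-base single-end reads) were processed by the authors with bcl2fastq 1.8.3, TopHat 1.4.1 and HTSeq 0.5.4, per the labels and the study's methods, on mouse build mm10 with RefSeq annotation. The authors deposited raw counts per gene, not normalized. The strand setting and the handling of multiply mapped reads are not given in the sources used here. The 23337 genes of the table were fitted together in R 4.3.3 with edgeR 4.0.16 (glmQLFit and glmQLFTest, TMM scaling, limma 3.58.1) for each pair of groups on its 6 libraries, keeping genes with at least 1 count, with Benjamini-Hochberg adjustment over all genes and a threshold of 0.05. SE is the absolute log2 fold change over the square root of F. A single gene was also given a two-sided exact permutation test of CPM, whose smallest p is 0.1. Depth bounds each level by counting error only.

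Given library by library were Hox genes called in any comparison, those averaging 20 counts or more with groups that do not overlap and an absolute log2 fold change of at least 1, and the 5 highest per length. Hoxa2, Hoxa7, Hoxb7, Hoxc9 and Hoxc13 were named after their values were seen. The members and gene lists were chosen with earlier results of these data known. Exon lengths, transcripts and positions came from GENCODE vM21 (GRCm38), promoters and microRNAs from RefSeq, with Python 3.11.15, pandas 2.3.3 and matplotlib 3.10.9. The fits were tested on simulated data.

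Replicate numbers come from the labels. Deviations from the group means of same-numbered libraries, over the 11535 genes that averaged 20 counts or more, correlated at 0.524, 0.210 and 0.511 for LAP with EV and at 0.558, 0.413 and 0.466 for LIP with LAP, and the blocked fit is therefore given for these comparisons where it changes a call. Alternatives were DESeq2 1.42.0, the exact test, other scalings, filters and thresholds, 1 model over the 9 libraries, the block, and leaving out each library. Some single genes of the lists are not reported here.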

Additional observations from a re-analysis of the deposited data

How the results depend on the processing

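Several single-gene log2 differences that passed no test on all 6 libraries changed sign. Among them, Hoxb8 and Hoxb9 in LAP against EV were called by the blocked fit without pair 2. With 1 library left out, Hoxd4 was -1.42 to 0.12 in LIP against EV and -1.11 to 0.42 in LIP against LAP, and Hoxd3 was -0.86 to 0.14 in LIP against LAP. Hoxa9 in LIP against EV was -0.13 without EV replicate 3 and -0.18 to 0.12 over all fits that left out 1 library, and -0.072 and -0.083 in the blocked fit without pair 2 and pair 3. In LAP against EV, Hoxc8 was -0.060 to 0.40 with 1 library left out, lowest without LAP replicate 1, and -0.0021 and -0.0035 in the blocked fit without pair 1 and pair 2, Hoxb9 was -0.42 to 0.046 with 1 library left out, highest without LAP replicate 3, and 0.097 in the blocked fit without pair 3, and Hoxb8 was 0.064 there. The number of genes called moved with the settings, and the cause was not tested. In LIP against EV (72 genes, 0 Hox) DESeq2 called 321 genes and 1 Hox gene, the exact test 301, scaling by total counts 36, filterByExpr 4, a minimum of 10 counts in every library 0, 1 model over the 9 libraries 157, a threshold of 0.01 13, and leaving out 1 library 22 to 367 genes and 0 to 2 Hox genes. In LAP against EV (11 genes, 0 Hox) DESeq2 called 26 genes and the exact test 33, filterByExpr 3, the minimum of 10 counts 0, the model over all libraries 5, the threshold of 0.01 6, and leaving out 1 library 6 to 62 genes and 0 to 1 Hox genes. DESeq2, the exact test, DESeq2 size factors and total counts each called 1 Hox gene there, Hoxa9, and among Hox genes averaging 100 counts or more, 10 had negative and 10 positive differences. In LIP against LAP (190 genes, 2 Hox) total counts gave 113 genes and 1 Hox gene, filterByExpr 2 and 0, the minimum of 10 counts 0 and 0, the threshold of 0.01 36 and 0, and leaving out 1 library 7 to 448 genes and 0 to 6 Hox genes. The replicate block called 54 genes and 1 Hox gene in LAP against EV and 1183 and 12 in LIP against LAP. In LIP against EV same-numbered libraries correlated at 0.290, -0.121 and 0.231, so not every pair deviated together, although the numbers of both groups paired with those of LAP. The replicate block called 467 genes and 5 Hox genes (Hoxb8, Hoxb9, Hoxc8, Hoxd8 and Hoxd9). Alternatives that joined the block with another choice were added after seeing the data. The block with DESeq2 called 495 genes and 5 Hox genes in LIP against EV, 45 and 1 in LAP against EV, and 784 and 11 in LIP against LAP. The block with filterByExpr called 33 genes with 0 Hox genes, 7 with 0, and 557 with 9, in the same order, so Hoxa9 was not called in LAP against EV. The block without pair 1, 2 and 3 called 398, 101 and 704 genes with 7, 0 and 2 Hox genes in LIP against EV, 35, 273 and 179 with 1, 7 and 2 in LAP against EV, and 640, 390 and 914 with 10, 4 and 7 in LIP against LAP. Depth limits Hoxa10, Hoxc10 and Hoxd9 most, at means of 16.9, 21.9 and 24.2 counts.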
